A study of Montastraea cavernosa with 311 samples.

Results

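Colonies of the reef-building coral Montastraea cavernosa with the transplant label were set against colonies with the shallow label at the time label 6. The libraries were chosen by their labels and not by any measured value: 8 transplant libraries (5 with the site label WFGB, 3 with EFGB) and 10 shallow libraries (5 WFGB, 5 EFGB), 18 libraries that make up 5.79% of the series. Each library was 3' tag sequencing of total RNA from 1 colony, named by a colony tag in its title. The baseline libraries of the transplant colonies, which have no time label, carry the mesophotic depth label, and those of the shallow colonies carry the shallow depth label. The labels give no unit for the time, no depth in metres, no age and no treatment other than the arm. The title of 2 of the 3 EFGB transplants (replicates 1 and 2) carries the date code IX-16, and all 16 other libraries at time 6 carry V-16. The baseline libraries of those 2 colonies carry V-16, the code of the other libraries at time 6, and the other 16 baseline titles carry neither code. By barcode run, a block of consecutive library numbers, 1, 3, 3 and 1 transplants at time 6 fell in runs 4, 5, 6 and 8. The shallow controls at time 6 fell 3, 3 and 4 in runs 5, 6 and 7. Only runs 5 and 6 held both arms. The same gene table held 17901 host isogroups (clusters of transcripts treated as a gene), of which 12005 had a name, beside 13375 isogroups of the algal symbiont. All gene values below are host isogroups scaled within the host total.

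Montastraea cavernosa is a stony coral that lives from shallow reefs down to the mesophotic zone, where light is dim and blue. Its gut cells house photosynthetic algae of the family Symbiodiniaceae, which supply sugars and lipids and release oxygen in the light. The pathways followed here are stinging-cell toxins, translation, respiration, chaperones and redox enzymes, immunity, lipid and egg-yolk handling, light-sensing proteins and exchange with the symbiont. The separate libraries of an arm are separate colonies by their title tags, and the exact permutation p-values rest on the values of these colonies alone. The gene p-values from edgeR rest on a spread largely pooled over isogroups. For a single isogroup they need not measure its own spread between colonies. In whole-tissue RNA, fewer cells of a type and less RNA per cell cannot be told apart.

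The libraries themselves varied widely within both arms. Host counts per library ran from 24391 through a median of 209187 to 770970 in transplants, and from 20931 through 309230 to 432971 in shallow controls. The number of host isogroups with at least 1 count ran from 1122 through 2392.5 to 4729 in transplants, and from 1279 through 1485 to 5431 in shallow controls. Symbiont isogroups took 0.458%, 6.26% and 12.1% of all counts (lowest, median, highest) in transplants, against 1.27%, 3.37% and 11.0% in shallow controls. The groups overlapped in all 3 measures. An exact two-sided permutation test within sites gave a log2 difference of 0.31 ± 0.36 (SE) in detected isogroups with p = 0.397, of -0.49 ± 0.77 in host counts with p = 0.529, and of -0.06 ± 0.46 in the log2 odds of the symbiont share with p = 0.904. Adjusted over these 3 measures, the permutation p-values were 0.793, 0.793 and 0.904.

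Depth and detection did not run together. The 5 libraries under 50000 host counts (3 transplants, 2 shallow) held 1656 to 5431 detected isogroups, whereas the 13 above it (5 transplants, 8 shallow) held 1122 to 2994. The libraries above 50000 host counts also had a larger share in their single most abundant isogroup, 4.26% to 17.4%, against 2.37% to 4.65% in the libraries below. The part of this difference in the gene results was not tested beyond the repeat with deep libraries alone. Pairs of colonies within and between arms were alike to a similar degree. Pearson's r of log2(CPM + 10) between libraries, given as a description across isogroups, had a median of 0.468 over 28 pairs of transplants, 0.471 over 45 pairs of shallow controls and 0.462 over 80 pairs of a transplant with a shallow control.

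**Figure D1:**
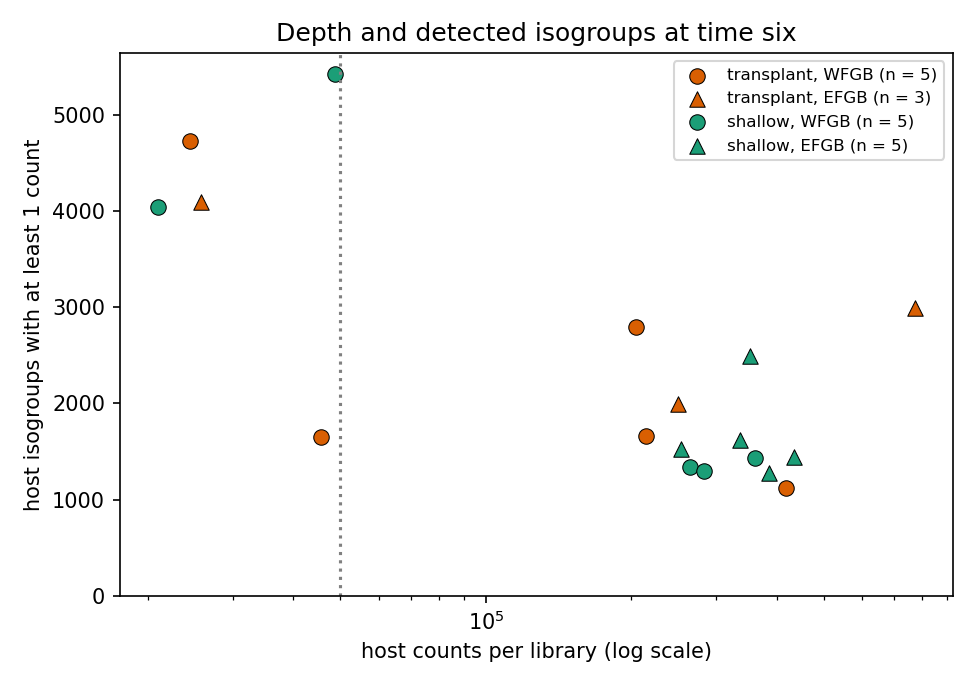
Host counts per library (x, log scale) against the number of host isogroups with at least 1 count (y) for the 8 transplants and 10 shallow controls at time 6. The dotted line marks 50000 host counts, and 4 of the 5 libraries left of it have the highest numbers of detected isogroups, up to 4729 in transplants and 5431 in shallow controls, while the fifth has 1656.

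Over both sites no host isogroup passed the test. edgeR's quasi-likelihood test, with site as a term and Benjamini-Hochberg adjustment at 0.05, called 0 of 2042 tested isogroups higher (0%) and 0 lower (0%) in transplants, and the smallest adjusted p was 0.197. At an unadjusted p under 0.05 the same edgeR fit had 83 isogroups higher (4.06%) and 23 lower (1.13%). limma called 0 in either direction (0%), and DESeq2 called 2 higher and 2 lower (0.0979% each). The fitted differences leaned upward in this fit: 1289 of 2042 (63.1%) were above 0, with a median log2 difference of 0.54 against a median SE of 1.90. The lean did not hold in every subset of libraries. The median was -0.31 in barcode runs 5 and 6, the only runs with both arms, and -0.13 at WFGB alone. It was 0.25 at EFGB alone and stayed above 0 in the other alternatives. Each fit tested the isogroups that passed its own filter.

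In the fit of all 18 libraries, the upward lean also depended on how many libraries detected an isogroup. For the isogroups with a count in all 18 libraries, which took 35.5% to 63.02% of a library's host counts, the median log2 difference was 0.08, with 83 above and 72 below 0. Their differences ran from -1.98 to 2.03 with a median SE of 1.08, and their 95% intervals reached a median of 2.13 to either side. For the 1196 isogroups detected in 9 to 17 libraries the median was 0.46. For the 691 detected in fewer than 9 libraries the median was 1.17 and the range -6.72 to 8.28. The 95% intervals of these 691 reached a median of 4.11 to either side. In any of these classes, a difference smaller than the reach of its interval could not be told from 0. The adjusted test over 2042 isogroups required a larger one.

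**Figure D2:**
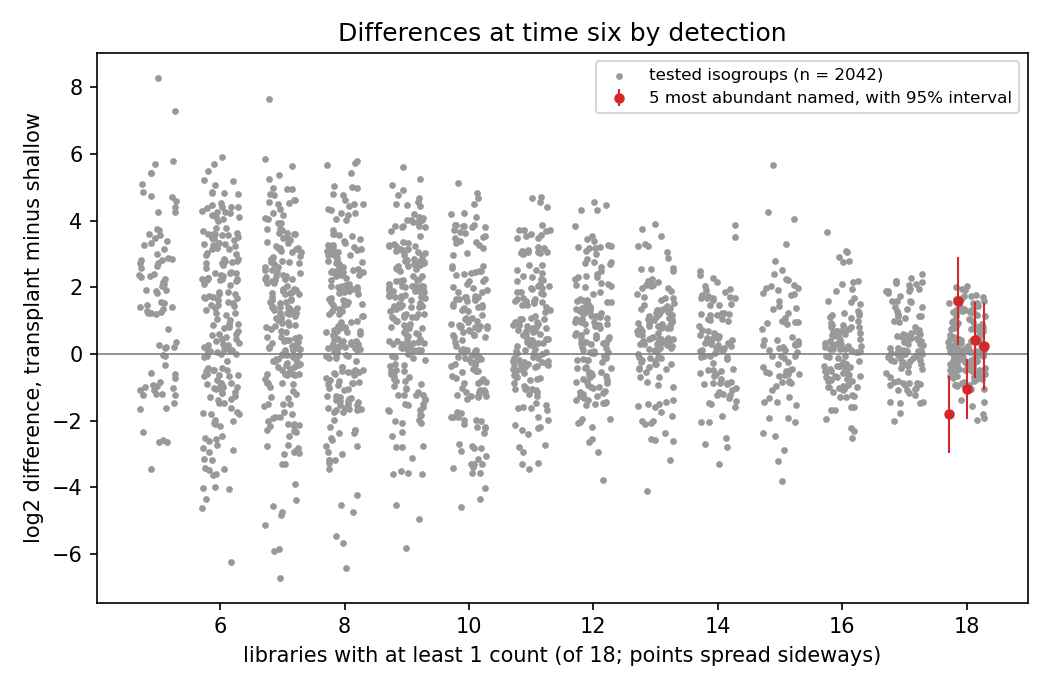
Log2 difference, transplant minus shallow, at time 6 (y) for each of 2042 tested host isogroups against the number of the 18 libraries with at least 1 count (x, points spread sideways). Differences spread widest for isogroups in fewer than 9 libraries, and the 5 most abundant named isogroups are in red with 95% intervals.

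Among named isogroups with a lower fitted level in transplants, a stinging-cell toxin had the smallest p. The isogroup Mcavernosa18854 is named sea anemone cytotoxic protein, the actinoporin family of pore-forming toxins that sea anemones load into their nematocysts. It held 4429, 12290 and 52524 CPM (counts scaled to a common host total; lowest, median, highest) in transplants, against 2251, 44409 and 153395 CPM in shallow controls. It was the most abundant host isogroup of 3 shallow libraries and of 0 transplants. The groups overlapped, and the log2 difference was -1.81 ± 0.59 (95% interval -2.96 to -0.67), with an unadjusted p of 0.00196 and an adjusted p of 0.945 in edgeR. An exact permutation of the arm within sites gave p = 0.171 for its log2 CPM. A second nematocyte-list isogroup, Mcavernosa31324, matched the list's words through a Rac GTPase name ("botulinum toxin substrate") and had -1.88 ± 1.82.

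The 2 sites gave different values for the toxin. At EFGB, Mcavernosa18854 had 4429, 9565 and 7860 CPM in the 3 transplants, against 43432, 153395, 135623, 103292 and 45259 CPM in the 5 shallow controls. Every EFGB transplant was below every EFGB shallow control, and the share of isogroups that separated in this way was not counted here. Fitted on EFGB alone, edgeR called Mcavernosa18854 lower, with a log2 difference of -3.58 ± 0.50 and an adjusted p of 1.78e-09, 1 of 1314 isogroups called lower there (0.0761%). An exact permutation test at EFGB gave p = 0.0179, the smallest its 56 labelings allow. At WFGB it had 30519, 42342, 15016, 7175 and 52524 CPM in transplants, against 2251, 43560, 120173, 21255 and 4682 CPM in shallow controls, and the groups overlapped. On WFGB alone the edgeR difference was -0.59 ± 1.02 with an adjusted p of 0.998, and the difference of mean log2 CPM had the other sign, 0.53 ± 1.17, with an exact permutation p of 0.683. The arm-by-site term (WFGB difference minus EFGB difference) was 3.31 ± 1.14, with an unadjusted p of 0.00373 and an adjusted p of 0.107 in edgeR, so the difference between sites did not pass the test over all libraries. It passed with an adjusted p of 4.6e-04 in edgeR among libraries with at least 50000 host counts. The only EFGB transplants there were the 2 dated IX-16.

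Several library properties moved with the EFGB toxin values. Replicates 1 and 2 of the EFGB transplants, at 4429 and 9565 CPM, carry the IX-16 title date, which no shallow control at time 6 carries. The third EFGB transplant, dated V-16 like the controls, had 7860 CPM and was also below all 5 EFGB shallow controls. It had 25700 host counts, fewer than any EFGB shallow control (252745 to 432971). Over both sites without the 2 IX-16 transplants, the log2 difference of Mcavernosa18854 was -1.23 ± 0.67 with an adjusted p of 0.782 in edgeR, and that of its mean log2 CPM was -0.46 ± 0.96 with an exact permutation p of 0.641, against -1.24 ± 0.87 with all libraries. With the number of detected isogroups as a covariate the edgeR difference was -0.83 ± 0.49, with an adjusted p of 0.478. Among libraries with at least 50000 host counts it was -2.21 ± 0.82 with an adjusted p of 0.975 in edgeR, and the mean log2 CPM differed by -2.10 ± 0.73 with an exact permutation p of 0.0119. The only EFGB transplants above 50000 host counts were replicates 1 and 2, dated IX-16.

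Baseline libraries of the same colonies were compared with those at time 6. The baseline libraries were shallower, with medians of 31123 (transplant colonies) and 51222 host counts (shallow colonies), against 209187 and 309230 at time 6. Their detected isogroups had medians of 3510 and 3439, against 2392.5 and 1485 at time 6. The part of depth in the changes below was not tested beyond the repeats with deep colonies and with detected isogroups as a covariate. The 3 EFGB transplants had 4429, 9565 and 7860 CPM of Mcavernosa18854 at time 6, and 28974, 76887 and 10997 CPM in the baseline libraries of the same colonies. All 3 were lower at time 6, and for the first 2 the title date also differs, IX-16 at time 6 and V-16 at baseline. The 5 EFGB shallow colonies had 43432, 153395, 135623, 103292 and 45259 CPM at time 6, and 15137, 12094, 13191, 5092 and 4490 CPM at baseline, all 5 higher at time 6. At WFGB all 5 transplants were higher at time 6, with 30519, 42342, 15016, 7175 and 52524 CPM against 11962, 4712, 9455, 2637 and 1696 CPM at baseline, and 3 of 5 shallow colonies were higher at time 6. The change from baseline to time 6, transplant minus shallow with colony as a block, was -2.24 ± 1.00 on the log2 scale with an adjusted p of 1 in edgeR. With colonies that had at least 50000 host counts in both libraries it was -4.83 with an edgeR adjusted p of 6.63e-05, from 3 transplant and 6 shallow colonies, and 2 of those 3 transplant colonies are the ones with an IX-16 library at time 6 and a V-16 baseline. Without the IX-16 transplants the difference in change was -1.28, with an adjusted p of 1 in edgeR. For these 2 colonies, time label and title date cannot be told apart. With the number of detected isogroups as a covariate and no colony left out for its date, the difference in change was -0.84 in edgeR. At time 12 the toxin had 686, 3291 and 5394 CPM (lowest, median, highest) in 6 transplants and 163, 3216 and 68545 CPM in 9 shallow controls. In the 7 mesophotic controls at time 6 it had 13812, 24790 and 35219 CPM, inside the range of both arms.

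Lists of cell-type markers gave no call over both sites. Summed over their list, nematocyte-named isogroups took 0.485%, 1.24% and 5.25% of host counts (lowest, median, highest) in transplants and 0.227%, 4.48% and 15.4% in shallow controls. That sum holds the toxin Mcavernosa18854 itself and was mostly its counts, at medians of 12290 CPM in transplants and 44409 CPM in shallow controls. Only 2 of the 6 nematocyte isogroups with any count in the 18 libraries could be tested. Of 16 tested neuron-list isogroups 8 were above and 8 below 0 (median 0.12), of 24 cilia isogroups 15 were above (0.57), of 39 muscle and actin isogroups 25 were above (0.50), and of 3 mucus and gland isogroups 1 was above (-0.36). Transgelin Mcavernosa06775, an actin-binding protein of muscle, had 43.9, 1400 and 26275 CPM in transplants and 11.3, 2439 and 8495 CPM in shallow controls (0.80 ± 0.99). These medians stand beside 0.54 over all tested isogroups.

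The most abundant translation gene was a ribosomal protein. Ribosomal protein L6 (Mcavernosa17045), a protein of the large ribosomal subunit, was the most abundant host isogroup in 4 transplants and 5 shallow controls. It held 3423, 47731 and 79143 CPM in transplants, against 8743, 92199 and 174239 CPM in shallow controls. The groups overlapped, and the log2 difference was -1.05 ± 0.46 (95% interval -1.95 to -0.14), with an unadjusted p of 0.023 and an adjusted p of 0.945 in edgeR. An exact permutation of the arm within sites gave p = 0.208 for its log2 CPM (-0.98 ± 0.74). Among libraries with at least 50000 host counts the exact permutation p was 0.0881 (-0.73 ± 0.40). The mesophotic controls at time 6 had 22645, 33169 and 71981 CPM. At baseline the level was 5512, 18022 and 31070 CPM in transplant colonies and 13712, 21159 and 58560 CPM in shallow colonies.

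Across its group the values were centred on 0. Of 49 tested cytosolic ribosomal protein isogroups, 25 were above and 24 below 0 with a median of 0.03, and 0 passed the test. Together they took 2.65%, 8.61% and 12.4% of host counts in transplants, against 3.65%, 14.0% and 21.55% in shallow controls, a sum that holds L6 itself. Another ribosomal protein, Mcavernosa09208, had 3608, 10428 and 24464 CPM in transplants and 2564, 7764 and 17602 CPM in shallow controls (0.23 ± 0.66). Of 27 translation factors and tRNA synthetases 18 were above 0 (median 0.33). The elongation factor eEF1B2 (Mcavernosa16384), which recharges the factor that carries tRNA to the ribosome, had 7.19, 4226 and 6109 CPM in transplants and 1294, 3491 and 6832 CPM in shallow controls (-0.18 ± 0.80).

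**Figure D3:**
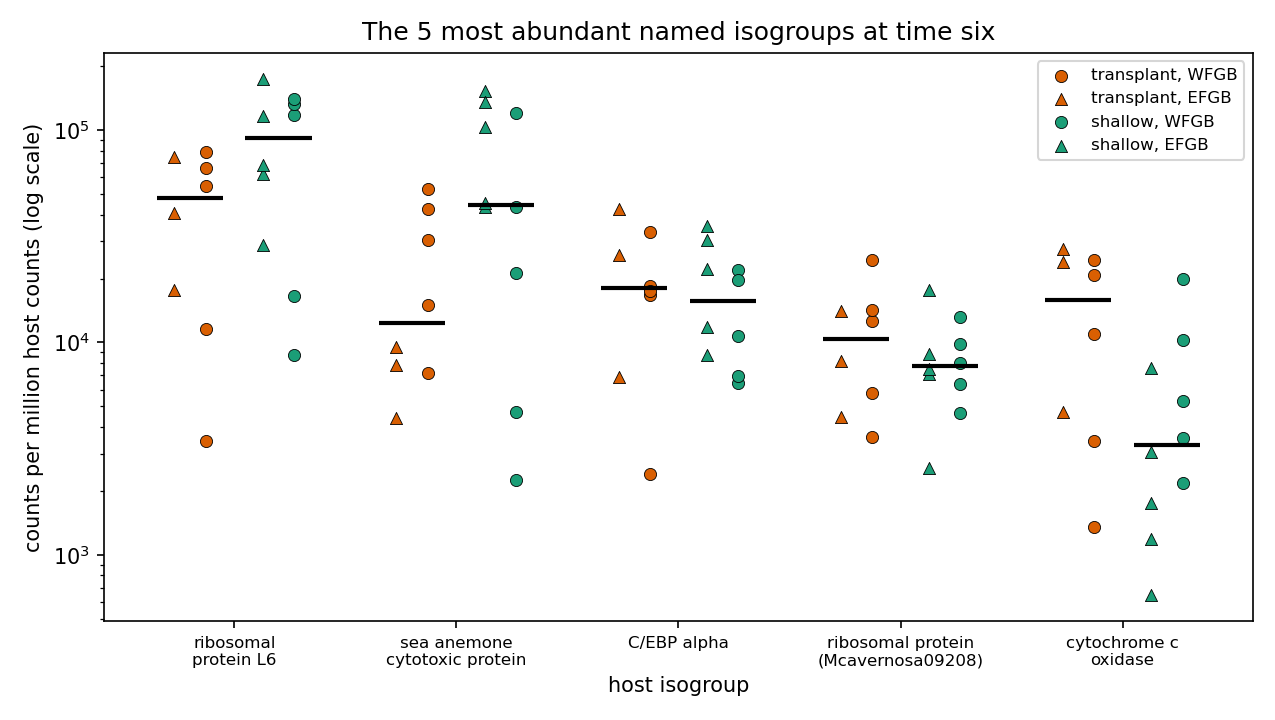
CPM, the count scaled to a common host total (y, log scale), of the 5 most abundant named host isogroups in each of the 8 transplants and 10 shallow controls at time 6, with the median of each arm as a bar. For each isogroup the arms overlap over both sites, and the EFGB toxin values separate, with transplants at 4429 to 9565 and shallow controls at 43432 to 153395.

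Among the 5 most abundant named isogroups, a respiratory gene was the one whose edgeR 95% interval lay above 0. Mcavernosa30572 is named as a core cytochrome c oxidase subunit, part of the complex that passes electrons to oxygen at the end of the mitochondrial respiratory chain. It held 1360, 15822 and 27489 CPM in transplants, against 645, 3289 and 19964 CPM in shallow controls. The groups overlapped, and the log2 difference was 1.59 ± 0.68 (95% interval 0.26 to 2.91), with an unadjusted p of 0.0189 and an adjusted p of 0.945 in edgeR. An exact permutation of the arm within sites gave p = 0.0791 for its log2 CPM (1.42 ± 0.75). The same permutation test gave p = 0.00714 (2.42 ± 0.78) with at least 50000 host counts, where the only EFGB transplants were the 2 dated IX-16. Without the IX-16 transplants it gave p = 0.491 (0.56 ± 0.79). At EFGB Mcavernosa30572 had 27489, 23982 and 4708 CPM in transplants and 7580, 3043, 1183, 1750 and 645 CPM in shallow controls. The third transplant lay inside the shallow range. On EFGB alone edgeR called it higher, 2.99 ± 0.65 with an adjusted p of 0.00245, 1 of 1314 called higher (0.0761%), while an exact permutation test at EFGB gave p = 0.0536. At WFGB it had 1360, 10960, 24543, 3444 and 20684 CPM in transplants and 5322, 19964, 2170, 10279 and 3535 CPM in shallow controls. The WFGB groups overlapped, with a difference of 0.37 ± 1.06.

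High oxidase values were found under both title dates. WFGB transplants 3 and 5, dated V-16, had 24543 and 20684 CPM of Mcavernosa30572. Over both sites without the 2 IX-16 transplants, which had 27489 and 23982 CPM, the log2 difference was 0.34 ± 0.85. The baselines of those 2 colonies were 14039 and 14720 CPM, and that of the third EFGB transplant was 5896 CPM. At time 12 the level was 12358, 38365 and 80577 CPM in transplants and 3283, 12758 and 35279 CPM in shallow controls. Date and arm cannot be told apart for those 2 colonies.

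Of 18 tested respiratory-chain isogroups 10 were above and 8 below 0, with a median of 0.10. A nuclear-type cytochrome c oxidase subunit VIb isogroup (Mcavernosa11724) had -0.30 ± 0.75, a core complex I subunit (Mcavernosa30570) 0.12 ± 1.02 and an ATP synthase Fo subunit (Mcavernosa20728) 0.27 ± 1.08. Of 11 isogroups of glycolysis, the citric acid cycle and glycogen, 8 were above 0 (median 1.07). In that list malate dehydrogenase (Mcavernosa19235) had -0.25 ± 0.77, and glyceraldehyde-3-phosphate dehydrogenase (Mcavernosa22152), a glycolytic enzyme, had 1.93 ± 1.04 with an unadjusted p of 0.0623 in edgeR.

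**Figure D4:**
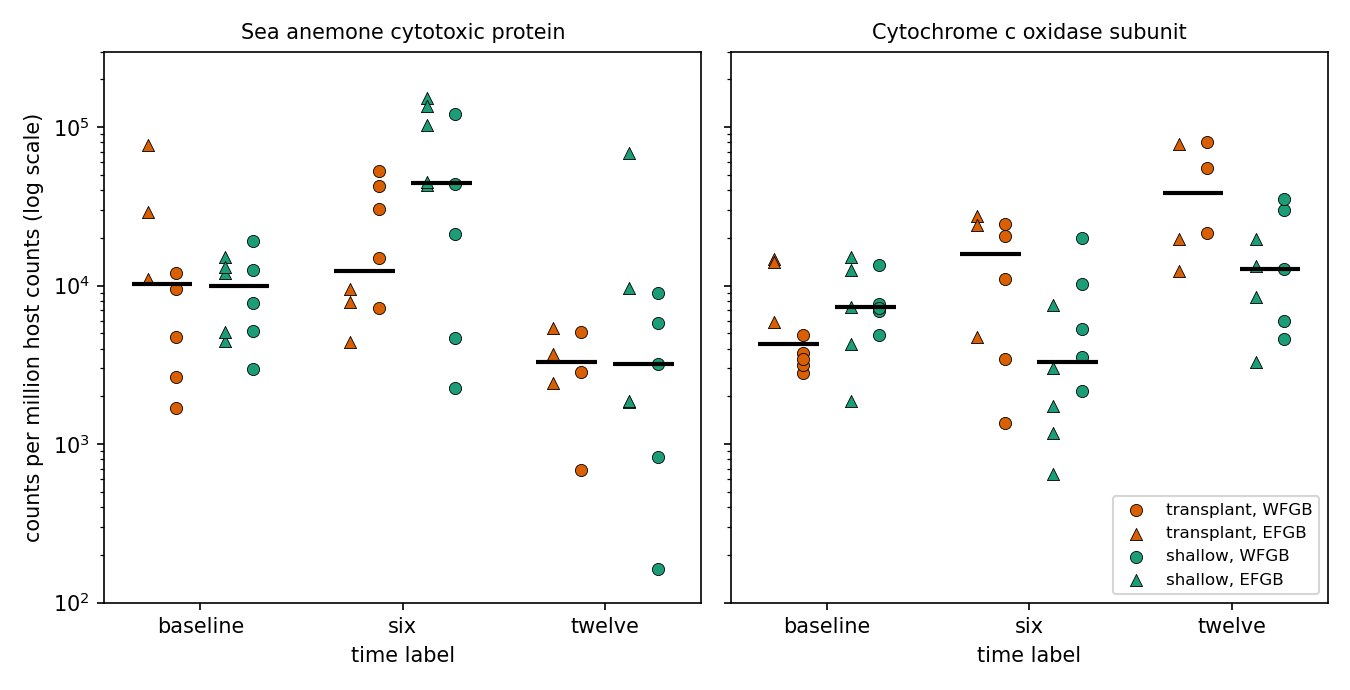
CPM, the count scaled to a common host total (y, log scale), of the cytotoxic protein (left) and the cytochrome c oxidase subunit (right) at baseline, time 6 and time 12 (x), with transplants left of shallow controls and the median of each arm as a bar. The toxin's EFGB transplants at time 6 lie at 4429 to 9565, below their EFGB controls at 43432 to 153395, and the oxidase medians in transplants are 15822 at time 6 and 38365 at time 12.

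Chaperones gave no call. GRP78 (Mcavernosa18764), the Hsp70 of the endoplasmic reticulum, where secreted proteins fold, had 7.19, 2362 and 15995 CPM in transplants, against 131.2, 713 and 5561 CPM in shallow controls. The groups overlapped (1.26 ± 0.88). Grp94 (Mcavernosa03557), the Hsp90 of the same compartment, had 779, 1894 and 5544 CPM in transplants and 0, 956 and 1920 CPM in shallow controls (1.58 ± 1.03). A protein disulfide isomerase (Mcavernosa14457), which forms disulfide bonds there, had -1.58 ± 1.02. Of 31 heat shock proteins and chaperones tested, 20 were above and 11 below 0 (median 0.58), near the 0.54 of all tested isogroups.

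Redox enzymes and iron proteins lay on both sides of 0. Of 15 redox and antioxidant isogroups 8 were above and 7 below 0 (median 0.03). Methionine sulfoxide reductase (Mcavernosa03516), which repairs oxidised methionine, had 41, 767 and 4561 CPM in transplants and 47.8, 1019 and 5839 CPM in shallow controls (-0.48 ± 1.03). A glutathione peroxidase (Mcavernosa23572), which reduces peroxides, had -0.21 ± 1.42. Of 11 iron and heme isogroups 8 were above 0 (median 0.91). The isogroup Mcavernosa17017, named as an iron-storing ferritin-type protein, had 943, 5857 and 13242 CPM in transplants and 621, 7047 and 12915 CPM in shallow controls (-0.31 ± 0.71).

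A heme binding protein 2 isogroup was detected in more transplants than shallow controls. The share of all isogroups with such a gap was not counted here, and the median number of detected isogroups was 2392.5 in transplants and 1485 in shallow controls. Mcavernosa02815 had a count in 7 of 8 transplants and in 2 of 10 shallow controls. Its CPM in the 5 WFGB transplants was 21.9, 31.1, 225, 204.99 and 467, and in the 3 EFGB transplants 193, 0 and 272.4. The shallow controls had 996 and 596 CPM in EFGB replicates 2 and 3, and 0 in the other 8. The 2 shallow values were above every transplant, so the groups overlapped, and the log2 difference was 4.93 ± 3.41 with an unadjusted p of 0.149 in edgeR.

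Immune and matrix genes gave no call. Of 34 innate immunity isogroups 26 were above 0 (median 0.49) and 1 reached an unadjusted p under 0.05. That one, Mcavernosa18068, is an excision repair gene that met the list's words through "complementation". A complement component (Mcavernosa23257) had 1304, 4250 and 7891 CPM in transplants and 641, 2707 and 10893 CPM in shallow controls (0.16 ± 0.81). Of 41 extracellular matrix and adhesion isogroups 23 were above 0 (median 0.38). The cadherin Mcavernosa27383, of the EGF LAG seven-pass family that sets cell polarity in flies and vertebrates, had 584 to 10729 CPM in the 8 transplants (1.88 ± 0.93, unadjusted p = 0.0423 and adjusted p = 0.945 in edgeR).

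Lipid and egg-yolk genes included the best-detected germ-line member. Vitellogenin (Mcavernosa26674), the precursor of egg yolk protein and lipid, had 769, 2251 and 8932 CPM in transplants, against 0, 990 and 2110 CPM in shallow controls. Transplant values of 2138 CPM and above, in 6 colonies, lay above every shallow value, and the other 2 lay inside the shallow range. The log2 difference was 1.95 ± 0.93, with an unadjusted p of 0.0357 and an adjusted p of 0.945 in edgeR. At baseline it had 398 to 4135 CPM in transplant colonies and 1032 to 4140 CPM in shallow colonies, and 221 to 1118 CPM in mesophotic controls at time 6.

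Of 11 germ-line isogroups tested, 9 were above 0 with a median of 1.95, the highest among the 21 lists with at least 10 tested members. A piwi-like isogroup (Mcavernosa21955), of the family that guards the germ line against transposons, had 4.47 ± 2.01 with counts in 5 transplants and 4 shallow controls, and 1 library held 66.4% of its CPM. Over the members that passed each site's own filter, the germ-line list's median was -0.44 at WFGB and 2.01 at EFGB. Of 32 lipid and sterol isogroups 20 were above 0 (median 1.00). Over the members tested at each site the medians were -0.37 at WFGB, where 729 isogroups in all passed the filter, and -1.64 at EFGB, where 1314 did. A lipase-domain isogroup (Mcavernosa17996) had 657, 9537 and 19867 CPM in transplants and 712, 2146 and 13903 CPM in shallow controls (1.18 ± 0.73), and the groups overlapped.

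Light-sensing and DNA-repair genes were thinly covered. Cryptochromes are flavoproteins that absorb blue light and set clocks in many animals. Both tested isogroups had fitted differences above 0. The isogroup named cryptochrome, Mcavernosa01532, had 0, 235 and 1124 CPM in transplants and 0, 29.6 and 1001 CPM in shallow controls (2.38 ± 2.02). Cryptochrome 1 (Mcavernosa10901) had 0, 276 and 1271 CPM in transplants, with a count in 6 of 8, against 0, 0 and 1290 CPM in shallow controls, with a count in 4 of 10 (3.34 ± 2.68). The ranges coincided for both genes.

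For Mcavernosa10901 the baselines were 0, 174.9 and 794 CPM in transplant colonies and 0, 427 and 895 CPM in shallow colonies. Its change from baseline, transplant minus shallow, was 8.18 ± 2.72 with an unadjusted p of 0.00267 and an adjusted p of 1 in edgeR. Of 5 DNA-repair isogroups 4 were above 0 (median 1.05), and the DNA translocase RAD54-like 2 (Mcavernosa14797) had 0.79 ± 1.60.

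Genes for exchange with the symbiont and for the skeleton were mostly too sparse to test. Of 38 isogroups on the nutrient and sterol exchange list 19 had a count and 5 were tested, 4 of them above 0 (median 0.46). Aquaporin 4 (Mcavernosa29857), a water channel, had 21.9, 658 and 1975 CPM in transplants and 0, 594 and 1895 CPM in shallow controls (0.14 ± 1.27). An ammonium transporter (Mcavernosa08187), of the family that moves nitrogen between host and symbiont, had 0.46 ± 2.02. Of 25 calcification isogroups 3 were tested, and Mcavernosa13573, a carbonic anhydrase II that hydrates carbon dioxide, had counts in 5 transplants and 6 shallow controls (-0.70 ± 2.16). No isogroup name matched the fluorescent protein list.

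The remaining lists had medians from -0.05 to 0.75. These were proteasome and ubiquitin with 21 of 36 above 0 (0.41), apoptosis and autophagy with 12 of 19 (0.42), solute carriers with 21 of 27 (0.75), peptidases with 22 of 36 (0.23), RNA processing with 14 of 29 (-0.02), histones and chromatin with 5 of 10 (-0.05) and transcription factors with 29 of 43 (0.46). The transcription factor C/EBP alpha (Mcavernosa26831), which directs cell differentiation in mammals, had 2413, 17973 and 42576 CPM in transplants and 6459, 15759 and 35373 CPM in shallow controls (0.41 ± 0.58). With the 5 deep transplants and 8 deep shallow controls alone, its log2 CPM differed by 1.16 ± 0.39 with an exact permutation p of 0.0167. The only EFGB transplants among these were the 2 dated IX-16. Over all 18 libraries the same test gave 0.14 ± 0.52 with an exact permutation p of 0.790, and without the IX-16 transplants -0.21 ± 0.60 with an exact permutation p of 0.739.

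Over all 28 lists, 27 had a tested member and 0 had a member past the test. Of the 548 isogroups on them that were tested, 21 were higher and 3 lower at an unadjusted p under 0.05 in edgeR. Over all 2042 tested isogroups 83 (4.06%) were higher and 23 (1.13%) lower at that threshold, so a lean upward was not particular to the lists. The medians were above 0 in 22 lists and below 0 in 5. By site, 10 of 26 medians were above 0 at WFGB and 17 of 27 at EFGB, and 17 lists had medians of opposite sign at the 2 sites. Each site's median was over the members that passed its own filter (729 isogroups in all at WFGB, 1314 at EFGB). The site medians therefore cover different members of a list.

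**Figure D5:**
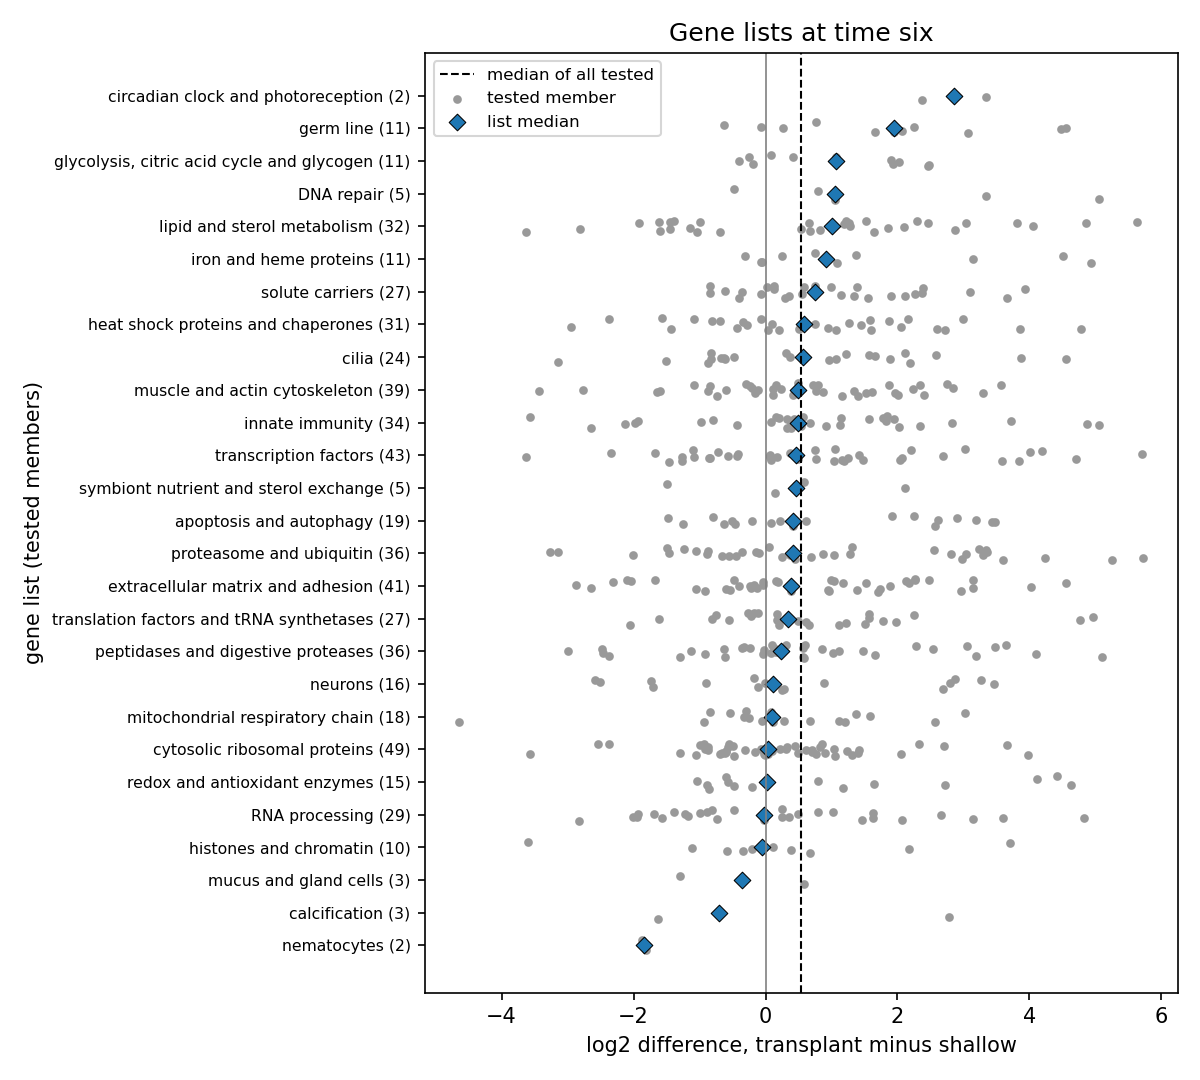
Log2 difference, transplant minus shallow, at time 6 (x) for each tested member of 27 gene lists (y, number tested in brackets), with the list median as a diamond and the median of all 2042 tested isogroups, 0.54, as a dashed line. Members of almost every list lie on both sides of 0, and none passed the test.

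Besides the cytotoxic protein, the isogroups named for their small p-values over both sites were each detected in fewer than 9 libraries. ADP-ribosylation factor (Mcavernosa00157), a small GTPase of vesicle budding, had counts in 5 transplants and in no shallow control. Its level was 613 and 233 CPM in EFGB transplants 2 and 3, and 98.0, 41 and 355 CPM in WFGB transplants 3, 4 and 5. UDP-N-acetylglucosamine pyrophosphorylase (Mcavernosa20938), which makes the sugar donor for chitin and glycoproteins, had 0, 150 and 518 CPM in transplants and 0, 0 and 40.9 CPM in shallow controls (5.91 ± 2.11). The tetraspanin CD151 (Mcavernosa17143) had 0, 0 and 4.00 CPM in transplants and 0, 77.4 and 494 CPM in shallow controls (-6.42 ± 2.36), with counts in 2 transplants and 6 shallow controls. The UV radiation resistance associated isogroup (Mcavernosa16491), an autophagy protein in mammals, had a count in 1 transplant and 6 shallow controls (-5.91 ± 2.38).

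DESeq2 alone called 4 isogroups over both sites, with a smallest adjusted p of 0.0452. A RING finger and CHY zinc finger isogroup (Mcavernosa19398), of a ubiquitin ligase family, had 0, 323 and 701 CPM in transplants and 0, 4.36 and 143 CPM in shallow controls, with counts in 7 and 8 libraries. The unnamed Mcavernosa12423 had 2.40, 413 and 3502 CPM in transplants and 0, 3.66 and 327 CPM in shallow controls. A Notch ligand (Mcavernosa24148), a membrane signal to neighbouring cells, had 0, 0 and 93.1 CPM in transplants and 0, 21.9 and 2512 CPM in shallow controls. The unnamed Mcavernosa22445 had a count in 1 transplant and 5 shallow controls. In edgeR these 4 isogroups had log2 differences of 4.27, 5.67, -5.68 and -6.24, and none passed its test.

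The libraries that carry a time label and had at least 20000 host counts were fitted together. This left out 1 of 46, replicate 3 of the EFGB transplants at time 12, with 15536 host counts. In edgeR 59 isogroups were called higher (1.46%) and 10 lower (0.247%) of 4052 tested. That fit had terms for site and group and no colony block. Many colonies entered it at both time 6 and time 12, and its p-values treat their libraries as independent. Most called isogroups were detected in few colonies. Among the 59, 46 had no count in any shallow control at time 6, and 42 had counts in at most 3 transplants. In 49 a single library held over 50% of the CPM. Of the 59, 4 had been tested in the fit of 18 libraries. Besides Mcavernosa00157 (adjusted p = 0.0189 in edgeR), the named ones with counts in at least 4 transplants and no dominant library were a ZNF106 homolog, a kinesin-like motor and GLIPR2. The kinesin-like isogroup Mcavernosa17181 had 133 counts in EFGB transplant 1, and 2, 25 and 3 counts in WFGB transplants 1, 3 and 4, with none in shallow controls. Of the 10 lower, 9 had no count in any transplant, and 3 met the same conditions. The signal recognition particle receptor (Mcavernosa05941), which docks ribosomes at the endoplasmic reticulum, had 40.9 and 461 CPM in WFGB shallow controls 1 and 2 and 713, 462 and 23.9 CPM in EFGB shallow controls 2, 3 and 4, with no count in transplants. Cytohesin (Mcavernosa21447), an exchange factor for ADP-ribosylation factors, had 260.99 CPM in EFGB shallow control 3, 258.09 CPM in WFGB shallow control 3, and 1 count in each of 4 other shallow controls.

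The sites were compared directly by the arm-by-site term. edgeR called 1 of 3368 isogroups lower (0.0297%) and 0 higher (0%). The called one, ATPase type 13A1 (Mcavernosa24436), a transporter of the endoplasmic reticulum in other animals, had 818 and 72 counts in EFGB transplants 1 and 2, and 14, 2 and 721 counts in WFGB shallow controls 1, 3 and 4. It had 1 count in EFGB shallow control 4 and none elsewhere. The fitted term was -19.26 ± 4.25 with an adjusted p of 0.0194 in edgeR, 1 library held 60.8% of its CPM, and 2 of its high values are the IX-16 libraries.

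Better-detected isogroups did not pass. The RING finger isogroup Mcavernosa19051, of a class of ubiquitin ligases, had 2695 to 24708 CPM in the 3 EFGB transplants and 2.59 to 2972 CPM in the 5 EFGB shallow controls. At WFGB it had 9.58 to 10685 CPM in transplants and 5.55 to 29191 CPM in shallow controls, and the term was -5.30 ± 1.70 with an edgeR adjusted p of 0.0767. The kinase-domain isogroup Mcavernosa02043 had 307.4 to 1206 CPM in EFGB transplants and 0 to 2.84 CPM in EFGB shallow controls, with no overlap. The share of isogroups that separated in this way was not counted here. Detected isogroups at EFGB had medians of 2994 in transplants and 1522 in shallow controls. At WFGB Mcavernosa02043 had 0 to 1865 CPM in transplants and 0 to 3271 CPM in shallow controls (-10.70 ± 2.95, edgeR adjusted p = 0.0578). At an unadjusted p under 0.05 the edgeR term was lower for 566 isogroups (16.8%) and higher for 3.62%, and it was above 0 for 36.8% of all tested.

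The colonies were also compared before the time label 6. In baseline libraries of 7 transplant colonies and 9 shallow colonies with at least 20000 host counts, edgeR called 0 of 946 isogroups higher (0%) and 0 lower (0%), with 10 higher (1.06%) and 25 lower (2.64%) at an unadjusted p under 0.05. The median log2 difference was -0.11 with a median SE of 0.84, and 44.3% of the differences were above 0. The cytotoxic protein differed by 0.64 ± 0.51 there, with 1696, 10226 and 76887 CPM in all 8 baseline libraries of transplant colonies and 2966, 9918 and 19170 CPM in all 10 of shallow colonies. The change from baseline to time 6, with each colony as its own block, gave 0 of 3362 isogroups higher (0%) and 0 lower (0%) in edgeR. At an unadjusted p under 0.05 3.66% were higher and 15 were lower (0.446%), and 67.6% of the differences were above 0. Among the smallest p-values, the discoidin domain receptor Mcavernosa25058, a collagen-binding receptor kinase, had a difference in change of 7.59 ± 2.57. It had 2.40, 374 and 2655 CPM at time 6 in transplants, all 8 with a count, and 0, 0 and 1187 CPM in shallow controls, 4 of 10 with a count.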

How the data were processed

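Tag-based 3' RNA-seq libraries were read from a single deposited table of raw counts per isogroup, in which the authors' columns matched the 311 libraries by name and 0 columns with values were left unmatched. The aligner, the build and the treatment of duplicates were not given in the sources used here. Host isogroups were taken by their identifier prefix. Libraries with at least 20000 host counts were kept, which left out none at time 6. edgeR 4.0.16 (TMM within the host total, filterByExpr on the design, robust quasi-likelihood fit, site as a term, Benjamini-Hochberg at 0.05) gave the tests, and SE is the log2 difference divided by the square root of F. limma 3.58.1 (log2 CPM, prior count 2), DESeq2 1.42.0, other scalings and filters, single sites, single libraries left out and a minimum of 50000 host counts were alternatives. Library measures used exact permutation within sites (14112 labelings). The scripts were tested on simulated data in R 4.3.3.

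Named isogroups were to be the 12 with the largest change each way among called ones with an informative name, counts in at least 50 percent of their group and no library over 50 percent of the CPM. As none was called over both sites, the 3 smallest p-values each way, the 5 most abundant named isogroups and isogroups followed through the series were named, with list members chosen for detection after the data were seen. The members and lists were chosen with earlier results of these data known. Baselines were paired to time 6 by colony tag, so colony was the block there. The arms share no colony.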

Additional observations from a re-analysis of the deposited data

Results flagged for a closer look

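In 4 isogroups, 1 library lay apart from the rest of its arm by Dixon's gap test at 95%, over 44 groups tested, of which chance sets apart about 5 percent. Levels are log2 CPM. WFGB transplant 2 had the lowest value of GRP78 (Mcavernosa18764) at 2.85, the lowest of the elongation factor eEF1B2 (Mcavernosa16384) at 2.85 and the lowest of the basic transcription factor 3-like isogroup (Mcavernosa26538) at 4.07. WFGB shallow 4 had the lowest value of Mcavernosa26538 among shallow controls, at 1.82. WFGB transplant 5 had the lowest value of the dynein-regulating isogroup Mcavernosa18494, at 2.22. The arm-by-site term set ATPase type 13A1 (Mcavernosa24436) apart at -19.26 on the log2 scale, with an edgeR adjusted p of 0.0194.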

How the results depend on the processing

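Over both sites, the count of 0 called isogroups each way held under other scalings, filters, limma, the 50000-count minimum, the detected-isogroup covariate, V-16 titles alone, barcode runs 5 and 6, WFGB alone and each of 18 libraries left out. The exceptions were DESeq2 with 2 higher and 2 lower, the joint fit of timed libraries with 59 higher and 10 lower, and EFGB alone with 1 and 1. The 1 lower call of the arm-by-site term became 0 under library-size scaling, no filter, detection in 9 libraries, limma and the detected-isogroup covariate. The 50000-count minimum, under which the only EFGB transplants were the 2 dated IX-16, gave 1 higher (the cytotoxic protein) and 0 lower. DESeq2 gave 67 higher and 38 lower. Leaving out 1 library gave 0 to 14 higher and 0 to 159 lower. These were 14 and 159 without WFGB transplant 4, 4 and 36 without WFGB shallow 3, and 0 and 3 without EFGB shallow 1. Without a filter the baseline had 1 lower call. The change from baseline had 37 higher and 2 lower in DESeq2 and 1 lower with the 50000-count minimum. Without the colony block, whose pairing comes from the title tags, it had 0 higher and 0 lower of 1441 tested. No paired analysis was possible between arms because replicate numbers at time 6 follow accession order only.

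The log2 difference in detected isogroups was -0.13 in barcode runs 5 and 6, -0.083 at WFGB alone (single sites were added for library measures after seeing the data), 0.84 ± 0.31 at EFGB alone (exact permutation p = 0.0357, adjusted 0.107) and 0.16 to 0.51 with 1 library left out. That in host counts was -1.01 without the IX-16 transplants, -1.02 at EFGB alone and -0.86 to 0.068 with 1 library left out. The symbiont log2 odds were -0.98 in barcode runs 5 and 6 (exact permutation p = 0.0952), 0.30 without the IX-16 transplants, 0.21 at EFGB alone and -0.41 to 0.34 with 1 library left out. Of 56 named isogroups tested, 23 kept their sign in every alternative and 33 did not. The causes were not tested. Host counts ran from 24391 to 770970 in transplants and from 20931 to 432971 in shallow controls. The median SE on the log2 scale was 1.90 in the main fit and 2.42 with the 50000-count minimum. At such an SE moderate differences were not detectable.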
